A study of Homo sapiens with 9 samples.

Results

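The 60 genes described here encode factors that make ribosomes in the nucleolus, from the transcription of ribosomal RNA (rRNA) by RNA polymerase I (Pol I) to the trimming and export of the subunits. They were taken from a list of symbols that was chosen with earlier results of these data known. The symbols were matched to the Ensembl gene identifiers of the count table. Each gene had to reach at least 10 counts in at least 3 of the 9 libraries. All 60 listed genes passed, out of 16030 genes that did so among the 63187 genes of the table. They were sorted by step into 6 Pol I genes, 8 genes of the small nucleolar ribonucleoprotein particles (snoRNPs), 3 abundant nucleolar proteins that act at several steps, 21 genes of the small subunit, 18 of the large subunit and 4 of the RNA exosome.

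Pol I copies one long precursor RNA from the rRNA gene repeats, and the 18S, 5.8S and 28S rRNAs are cut out of it. The snoRNPs guide its chemical modification, the small subunit (SSU) processome folds and cleaves the part that becomes the small subunit, a second series of particles (pre-60S) matures the large subunit, and the exosome degrades spacers from their 3′ ends. Ribosome production takes up much of the energy of a growing cell, and many of these genes are known targets of the growth-promoting transcription factor MYC.

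Polyadenylated RNA was sequenced from BEAS-2B, an immortalized line of human bronchial epithelial cells grown in medium with serum. Cells were left untreated (Control) or kept for 24 h with a 2% (v/v) dilution of aerosol condensate from the carrier liquid of propylene glycol and vegetable glycerine (PG/VG) or from an e-cigarette liquid with 18 mg/ml nicotine and Virginia tobacco flavor (EC). Each condition had 3 libraries, 1 in each of the batches 2, 3 and 4, and the study calls them biological replicates of a single line. The untreated libraries served both treatments, so both comparisons with control use the same samples and are not independent. The libraries held mRNA, so neither rRNA nor its processing was measured, and in bulk RNA a change in the cells present and a change in the RNA per cell cannot be told apart.

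The libraries held 16168260 to 24917838 counts on genes and 23347 to 26134 genes with at least 1 count. The keratins KRT8 and KRT18 were at 784.7 to 1165 and at 314.5 to 609 CPM (counts scaled to the size of the library), whereas the epithelial markers EPCAM and CDH1 stayed at or below 1.97 CPM, the basal markers KRT5, KRT14 and TP63 at or below 0.309 CPM, and the mesenchymal genes VIM and FN1 reached 815.5 to 1106 and 2463 to 5378 CPM. The fourth basal marker, KRT17, was at 47.4 to 239.9 CPM and higher in EC than in control, with an LFC of 0.45 ± 0.088 (edgeR adjusted p = 0.00199), and its part in the results was not tested. The epithelial label therefore rests on keratins and not on EPCAM or CDH1. The leukocyte markers CD3E and PTPRC held 0 to 2 counts. The sum of 4 leukocyte markers, which also include CD68 and ITGAM, was 0.360 to 0.727 CPM in control, 0.362 to 1.44 CPM in PG/VG and 0.514 to 2.02 CPM in EC. The sum of the 4 mesenchymal markers was 5687 to 7415 CPM in control, 5476 to 7330.0 CPM in PG/VG and 4478 to 6197 CPM in EC, and its part in the results was not tested.

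The sequences upstream of 5 members are shown because they hold CACGTG, the canonical E-box to which MYC with its partner MAX and several other factors can bind. RefSeq (GRCh38.p14) gave a window from 250 bases before to 50 bases after the start for 51 of the 60 members, and 18 of these (35.3%) held CACGTG, which reads the same on both strands. The share was 9.94% of the windows of 11426 tested genes and 7.43% of all 27305 windows. The last 100 bases before the start are printed 5′ to 3′ on the strand of the gene, with CACGTG in capitals. They lie at chr19:41397360-41397459 (minus strand) for EXOSC5 (ENSG00000077348), at chr16:69132549-69132648 (plus strand) for UTP4 (ENSG00000141076), at chr12:101280005-101280104 (plus strand) for UTP20 (ENSG00000120800), at chr17:51260446-51260545 (plus strand) for UTP18 (ENSG00000011260) and at chr15:34343137-34343236 (minus strand) for NOP10 (ENSG00000182117).
EXOSC5: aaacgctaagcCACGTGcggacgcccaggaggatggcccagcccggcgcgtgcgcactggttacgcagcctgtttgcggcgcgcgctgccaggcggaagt
UTP4: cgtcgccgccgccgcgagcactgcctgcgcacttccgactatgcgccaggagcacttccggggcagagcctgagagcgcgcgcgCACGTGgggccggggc
UTP20: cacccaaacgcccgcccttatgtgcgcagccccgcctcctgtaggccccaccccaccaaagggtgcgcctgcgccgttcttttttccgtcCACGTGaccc
UTP18: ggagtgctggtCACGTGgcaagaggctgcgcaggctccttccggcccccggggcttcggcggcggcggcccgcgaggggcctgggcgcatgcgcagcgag
NOP10: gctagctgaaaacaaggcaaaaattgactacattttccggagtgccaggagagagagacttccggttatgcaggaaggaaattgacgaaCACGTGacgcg
In the printed bases, the match lies close to the start in UTP4, UTP20 and NOP10 and nearer the far end in EXOSC5 and UTP18. The full windows of EXOSC5 and UTP18 also held a match downstream of the start, with its first base at position 15 and 5. The full window of NOP10 held another match upstream, with its first base at position 170. The related hexamer CACGCG, read on both strands, was in 33.3% of the members' windows and 18.2% of those of tested genes, and its matches may share letters with those of CACGTG. The GC box, read on both strands as the letters GGGCGG, was in 74.5% of the members' windows and in 69.8% of the windows of all tested genes. For the sequence CCAAT the shares were 47.1% and 36%. These matches are letters in a window and not binding sites, and no test was made on them.

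Per kilobase of exon, the control libraries held most NPM1 RNA, with a mean of 165 CPM per kb, followed by NCL with 120.5, FBL with 83.8, PA2G4 with 76.2 and NOLC1 with 69.0. The median of the 60 members was 18.7 CPM per kb. DDX10 with 2.73, DDX47 with 0.325 and NOP2 with 0.167 were the lowest. Counting left out reads that fall on the exons of more than 1 gene, and NOP2 shares 54.4% of its exon length with other genes and DDX47 36.5%. The other 58 members had 276 to 30693 counts in every library.

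The question put to each member was whether its mRNA level differed between conditions once the batch was in the model, and log2 fold changes (LFCs) with their standard errors (SE, n = 3 libraries per condition) come from one edgeR fit of all 16030 genes. In EC vs. control 30 of 60 members were called downregulated at an adjusted p under 0.05 and 0 were called upregulated, beside a background of 5.38% of all tested genes called lower and 8.07% higher (13.5% in either direction). All 30 were lower in each of the 3 batches, with a largest fall of 36.4% in the fit. At an unadjusted p under 0.05 the numbers were 44 lower (background 12%) and 0 higher (2461 of all 16030 tested genes). By sign alone 56 members were lower (background 48.5%). Over all tested genes 863 were lower and 1294 higher, and 486 and 1863 when total counts were the only scaling. The median LFC was −0.23 for the members and 0.0078 for all tested genes. In PG/VG vs. control 8 members were called lower (background 1.9%) and 0 higher (background 2.63%, or 4.54% in either direction). At an unadjusted p under 0.05 there were 31 lower (background 9.21%) and 1 higher (1749 of all 16030 tested genes). By sign 54 members were lower (background 47.1%). The 8 members called lower fell by 17.2% to 27.9%, and the median LFC was −0.16 (all tested genes 0.013). Over all tested genes 305 were called lower and 422 higher, or 236 and 609 with total counts as the only scaling.

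By step, the 30 members called lower in EC were 0 of 6 Pol I genes, 4 of 8 snoRNP genes, 2 of 3 nucleolar proteins, 9 of 21 small subunit genes, 11 of 18 large subunit genes and 4 of 4 exosome genes. For PG/VG the counts were 0, 1, 1, 0, 5 and 1 in the same order. Differences between steps were not tested. Fits that left out 1 library at a time kept 11 EC calls in all 9 fits, those of NPM1, NOP56, DKC1, DDX21, UTP4, BOP1, PES1, EBNA1BP2, MRTO4, PA2G4 and EXOSC5. The other 19 all lost the call without Control replicate 3, and most also without other libraries. The number of EC calls over the 60 members fell to 12 without Control replicate 3, 16 without Control replicate 2 and 18 without EC replicate 4. The share of all tested genes called lower fell as well, from 5.38% to 2.89%, 3.63% and 3.39% in these fits. The number of PG/VG calls fell to 0 without PG/VG replicate 2, 3 without Control replicate 3, 4 without PG/VG replicate 4 and 5 without Control replicate 4. Of all tested genes, 0.391%, 0.757%, 1.1% and 1.04% were called lower in these fits, beside 1.9% in the main fit. With total counts as the only scaling 16 members were called lower in EC (3.03% of all tested genes). After a trend with GC content and length was removed, the EC count was 39 (9.75%). In PG/VG the count was 27 with counts adjusted for batch by ComBat-Seq and fitted in DESeq2 (5.89% of all tested genes) and 14 after a trend with GC content and length was removed (3.54%). Without the replicate block neither treatment had a member called, although 25 members in EC and 11 in PG/VG were lower at an unadjusted p under 0.05. In that fit 0 of all 16030 tested genes were called lower in either treatment, so the lack of calls is not particular to the members. The share of all genes at an unadjusted p under 0.05 was not computed for it. Read without a model, the 3 EC libraries all lay below the 3 control libraries for 32 of 60 members (7.42% of all tested genes), and the 3 PG/VG libraries did so for 18 (6.37%). Summed over the 60 members, the controls of batches 2, 3 and 4 had 8588, 8358 and 7808 CPM, PG/VG had 7589, 7363 and 7089.6 CPM, and EC had 7309, 7077 and 6502.5 CPM. Each batch therefore had the same order of the summed level, control above PG/VG above EC, and every treated library lay below every control library. The sum gives most weight to abundant members, and NPM1 and NCL alone held 1430 and 1100 CPM in Control replicate 2.

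**Figure D1:**
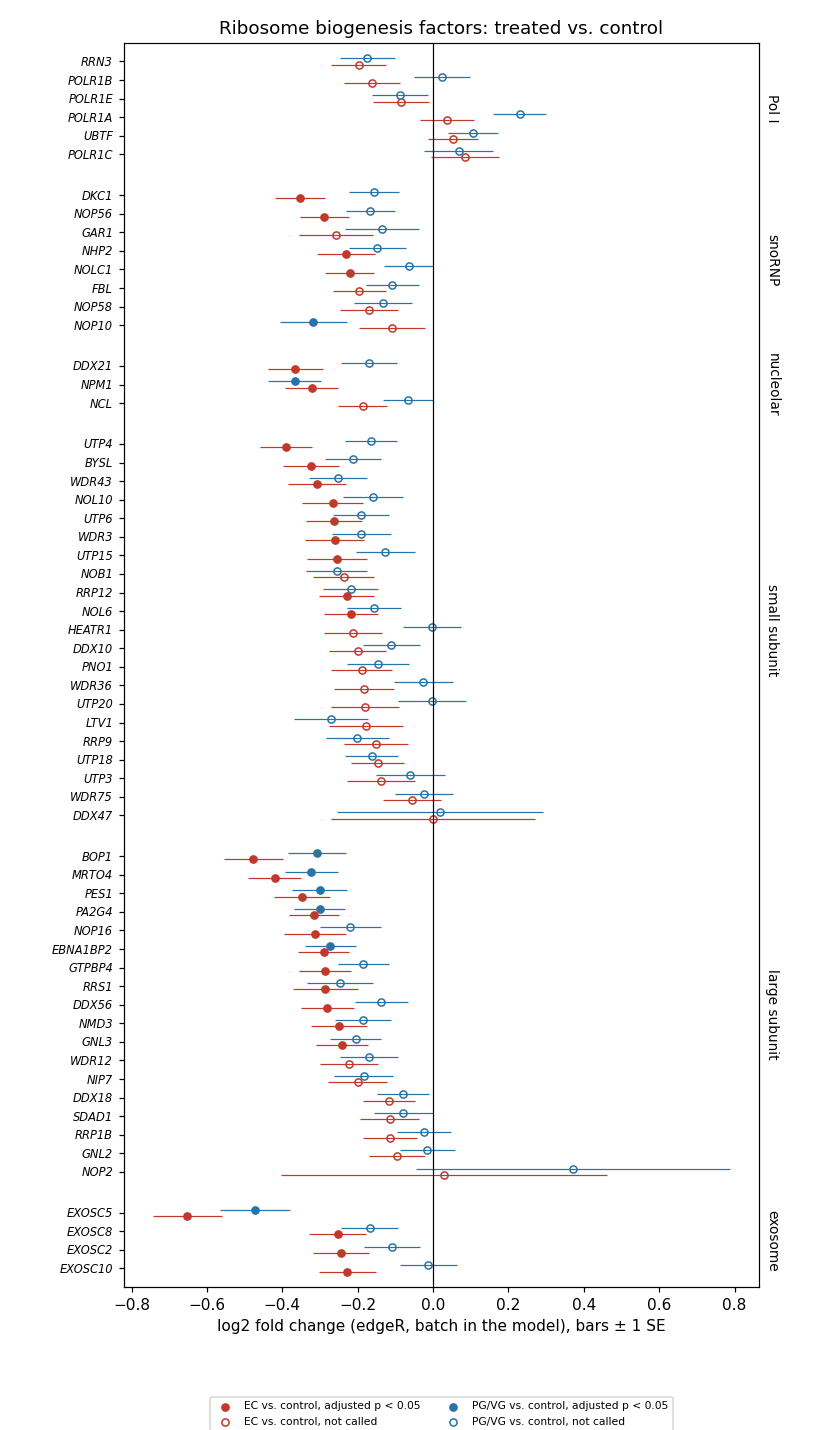
LFC ± SE of the 60 members, grouped by step from top to bottom, for EC vs. control in red and PG/VG vs. control in blue, with filled points for genes at an adjusted p under 0.05. Filled red points (30) lie to the left of 0 in every step but Pol I, filled blue points number 8, and NOP2 and DDX47 have the widest errors.

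The Pol I genes did not pass the test in either treatment, and their median LFC was −0.025 for EC and 0.045 for PG/VG. POLR1A encodes the largest subunit of the enzyme and forms part of its active center. It stood at 107, 105 and 139 CPM in the control libraries of batches 2, 3 and 4, at 129, 126 and 155 CPM in PG/VG and at 103, 119 and 137 CPM in EC. PG/VG was the highest of the conditions in each batch, while the EC and control libraries overlapped. The LFC was 0.23 ± 0.071 in PG/VG (edgeR adjusted p = 0.0655) and 0.036 ± 0.071 in EC (edgeR adjusted p = 0.797). POLR1A was called higher in PG/VG when total counts were the only scaling, with ComBat-Seq and DESeq2, when only PG/VG and control libraries were fitted, and without EC replicate 2.

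POLR1B, the second largest subunit, was at 61.3, 58.3 and 58.1 CPM in control, 62.2, 58.9 and 59.4 CPM in PG/VG and 51.3, 56.1 and 51.4 CPM in EC. Its EC libraries lay below all others, but the LFC of −0.16 ± 0.075 had an edgeR adjusted p of 0.164. RRN3, the factor TIF-IA that makes Pol I competent to start, was at 94.3, 85.7 and 94.6 CPM in control, 74.5, 78.2 and 91.0 CPM in PG/VG and 78.9, 75.8 and 84.9 CPM in EC. EC was again below every control library, with an LFC of −0.20 ± 0.073 and an edgeR adjusted p of 0.0789. POLR1E, the subunit also known as PAF53, had 63.1, 63.0 and 43.3 CPM in control, 62.5, 56.2 and 40.7 CPM in PG/VG and 59.2, 59.3 and 41.1 CPM in EC. Its conditions overlapped and batch 4 was the low one throughout.

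UBTF, the factor that binds across the rRNA genes and keeps them open, was at 159, 173 and 144 CPM in control, 184, 183 and 147 CPM in PG/VG and 172, 179.6 and 144 CPM in EC. POLR1C, a subunit shared with Pol III, had 23.4, 26.7 and 32.1 CPM in control, 26.3, 26.2 and 33.6 CPM in PG/VG and 28.3, 24.3 and 34.7 CPM in EC. For both genes the conditions overlapped. The LFC of UBTF was 0.052 ± 0.067 in EC and 0.11 ± 0.067 in PG/VG. That of POLR1C was 0.085 ± 0.091 in EC and 0.067 ± 0.091 in PG/VG. Along with POLR1A and NOP2, these were the 4 members with a positive LFC in both treatments, and none of them passed the test. In EC, the sign turned for POLR1A and UBTF when a trend with GC content and length was removed, and it turned for NOP2 without the replicate block.

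The snoRNP genes were lower in EC as a group of 8 by sign, and 4 passed. DKC1 encodes dyskerin, the pseudouridine synthase of the box H/ACA particles and a component of telomerase. Its level was 184, 179.6 and 133 CPM in control, 159, 159 and 125 CPM in PG/VG and 147, 137 and 104 CPM in EC. Within every batch the order was control, PG/VG and EC, although batch 4 was so low that the conditions overlapped across batches. The LFC was −0.35 ± 0.067 in EC (edgeR adjusted p = 0.00107) and −0.16 ± 0.067 in PG/VG (edgeR adjusted p = 0.184).

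NOP56, a core protein of the box C/D particles that guide 2′-O-methylation, had 247, 247 and 202 CPM in control, 221, 227 and 173 CPM in PG/VG and 207, 207 and 158 CPM in EC. It showed the same order within batches and the same low batch 4, with an LFC of −0.29 ± 0.065 in EC (edgeR adjusted p = 0.00485). NOLC1, the chaperone Nopp140 that travels with snoRNPs, was at 300.2, 289 and 232 CPM in control, 289, 271 and 225 CPM in PG/VG and 249.5, 256 and 199 CPM in EC. PG/VG sat close under control in each batch and EC was the lowest. The EC LFC of NOLC1 was −0.22 ± 0.065 (edgeR adjusted p = 0.0259) and that in PG/VG −0.065 ± 0.065. NHP2, an H/ACA core protein, was the fourth gene that passed, at −0.23 ± 0.077 (edgeR adjusted p = 0.0474), and 28.0% of its exon length is shared with other genes. The calls of NOLC1 and NHP2 were lost without any one of the 3 control libraries or EC replicate 4, with edgeR adjusted p up to 0.112 and 0.201, the former also without EC replicate 2 and the latter also without EC replicate 3 or PG/VG replicate 2.

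The other 4 snoRNP genes did not pass in EC. FBL, the methyltransferase fibrillarin, had an LFC of −0.20 ± 0.07, its partner NOP58 −0.17 ± 0.077 and the H/ACA protein GAR1 −0.26 ± 0.099. NOP10, the smallest H/ACA protein, was the only member called in PG/VG and not in EC. It stood at 67.0, 64.1 and 108 CPM in control, 57.3, 60.1 and 70.9 CPM in PG/VG and 71.1, 63.6 and 83.1 CPM in EC. PG/VG was lowest in each batch, but the gap was wide only in batch 4, where the control library was far above the other controls. The LFC of NOP10 was −0.32 ± 0.089 in PG/VG (edgeR adjusted p = 0.0425) and −0.11 ± 0.088 in EC, and without Control replicate 4 the EC value was 0.043. Its PG/VG call was lost without Control replicate 4, PG/VG replicate 2, PG/VG replicate 4 or EC replicate 4, with an edgeR adjusted p up to 0.331.

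The 3 nucleolar proteins that act at several steps are among the most abundant of the members. NPM1 encodes nucleophosmin, a chaperone of the granular part of the nucleolus. It was at 1430.0, 1332 and 1343 CPM in control, 1042, 1046 and 1089.5 CPM in PG/VG and 1218, 1071 and 1001 CPM in EC. All treated libraries lay below all control libraries, and PG/VG and EC overlapped. The LFC was −0.32 ± 0.07 in EC (edgeR adjusted p = 0.00381) and −0.37 ± 0.07 in PG/VG (edgeR adjusted p = 0.00351). The annotation lists 49 pseudogenes named after NPM1, and reads that matched several places were not counted, so its level is uncertain. Without PG/VG replicate 2 the PG/VG call was lost, at an edgeR adjusted p of 0.0592.

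DDX21, an RNA helicase that links Pol I transcription with processing, had 500.4, 486 and 372 CPM in control, 432, 390.0 and 378 CPM in PG/VG and 352, 369 and 327 CPM in EC. Every EC library was below every control library, whereas PG/VG overlapped with control across batches, and in batch 4 its value was not below that of control. The LFC was −0.37 ± 0.073 in EC (edgeR adjusted p = 0.00182) and −0.17 ± 0.073 in PG/VG (edgeR adjusted p = 0.191). NCL, nucleolin, which binds the nascent precursor, was at 1100.4, 1078 and 1045 CPM in control, 1115, 986 and 979 CPM in PG/VG and 985, 976 and 873 CPM in EC. EC was below control without overlap, but the LFC of −0.19 ± 0.066 did not pass (edgeR adjusted p = 0.0634).

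**Figure D2:**
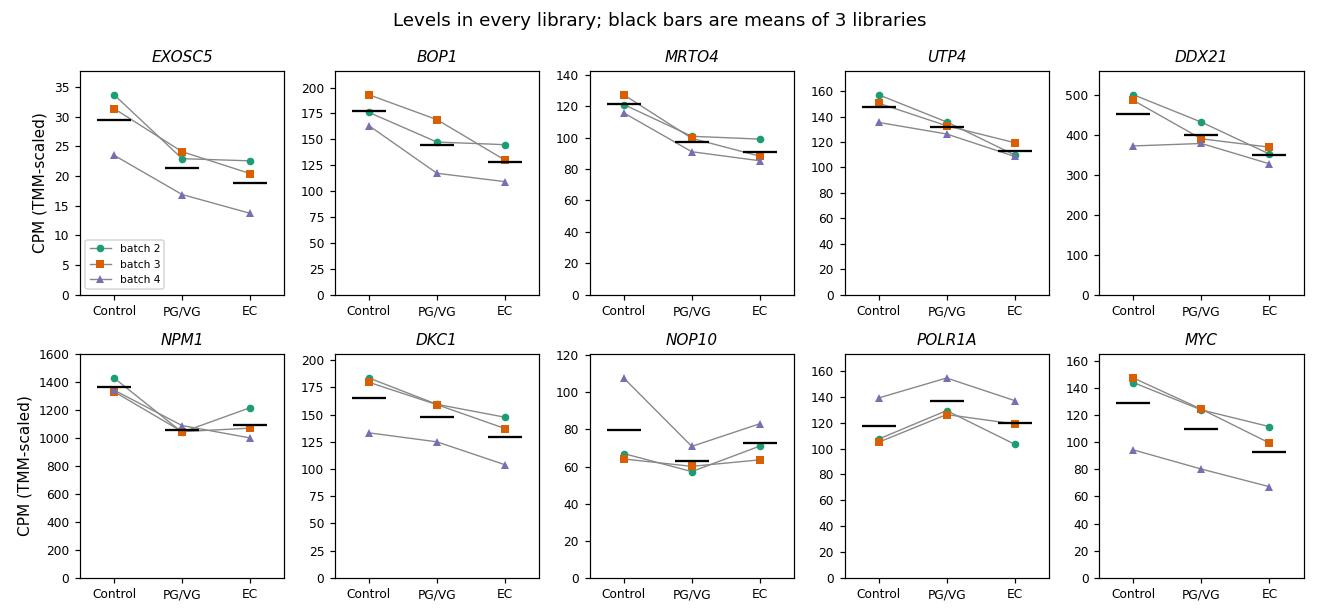
Level in CPM, scaled with TMM factors and on axes that start at 0, of 9 members and of MYC in each library, with lines joining the libraries of a batch and black bars for the means of 3 libraries. EXOSC5, BOP1, MRTO4 and UTP4 step down from control to EC in each batch, NOP10 is lowest in PG/VG and POLR1A highest in PG/VG.

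Of the 21 small subunit genes, 9 were called lower in EC. PG/VG had 0 calls here, with a median LFC of −0.16 where EC had −0.21. UTP4, also called cirhin, belongs to UtpA, the first complex to load on the nascent precursor. It was at 157, 151 and 135 CPM in control, 136, 133 and 126 CPM in PG/VG and 109.8, 119 and 109 CPM in EC. The EC libraries were below all 6 others, and PG/VG was intermediate in every batch. The LFC was −0.39 ± 0.069 in EC (edgeR adjusted p = 0.000569) and −0.16 ± 0.069 in PG/VG (edgeR adjusted p = 0.177).

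WDR43, another UtpA protein, had 121, 115.5 and 106 CPM in control, 96.6, 88.2 and 103 CPM in PG/VG and 88.0, 92.6 and 95.8 CPM in EC. Both treatments were below control without overlap, and they overlapped with each other. Its LFC was −0.31 ± 0.077 in EC (edgeR adjusted p = 0.00988) and −0.25 ± 0.077 in PG/VG (edgeR adjusted p = 0.0626). UTP15 was the third UtpA gene called, at −0.25 ± 0.08. Both lost the EC call without Control replicate 2 or 3, at edgeR adjusted p up to 0.0784 for WDR43 and 0.186 for UTP15, and UTP15 also without any one EC library. HEATR1, the UtpA scaffold, and WDR75 were not called, at −0.21 ± 0.077 and −0.057 ± 0.077 in EC, and HEATR1 shares 23.1% of its exon length with other genes.

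In UtpB, the next complex on the precursor, UTP6 at −0.26 ± 0.074 and WDR3 at −0.26 ± 0.078 were called in EC, while WDR36 at −0.18 ± 0.079 and UTP18 at −0.15 ± 0.071 were not. Among other factors of the SSU processome, NOL10 at −0.27 ± 0.08 and NOL6 at −0.22 ± 0.071 were called. These 4 calls were lost without Control replicate 3 or EC replicate 4, at edgeR adjusted p up to 0.115 for UTP6 and 0.232 for WDR3, and the other libraries that decided them were Control replicate 2 (WDR3, NOL10, NOL6), Control replicate 4 (UTP6, NOL6), EC replicate 2 (WDR3, NOL10), EC replicate 3 (NOL6) and PG/VG replicate 2 (NOL6). DDX10, UTP20, RRP9 and UTP3 had LFCs between −0.20 and −0.14 and were not called. DDX47 was at 1.24 to 2.05 CPM over the 9 libraries, with overlapping conditions.

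BYSL, bystin, acts late on the pre-40S particle. It stood at 60.5, 62.7 and 56.6 CPM in control, 53.9, 53.2 and 48.1 CPM in PG/VG and 50.8, 47.2 and 45.6 CPM in EC. Both treatments lay below control without overlap, and in each batch EC was the lowest. The LFC was −0.33 ± 0.074 in EC (edgeR adjusted p = 0.00521) and −0.21 ± 0.074 in PG/VG (edgeR adjusted p = 0.102). RRP12, which takes part in subunit export, was also called in EC, at −0.23 ± 0.074 (edgeR adjusted p = 0.0409), with a value of −0.22 ± 0.074 in PG/VG. Without Control replicate 3 BYSL had an edgeR adjusted p of 0.0531, and RRP12 lost its call in 6 of the 9 fits without 1 library, those without a control library, PG/VG replicate 2, EC replicate 2 or EC replicate 3 (up to 0.193). The endonuclease NOB1, which makes the last cut at the 3′ end of 18S rRNA, reached −0.24 ± 0.082 in EC (edgeR adjusted p = 0.0555) and shares 20.4% of its exon length. Its partner PNO1 and the export factor LTV1 had LFCs of −0.19 ± 0.082 and −0.18 ± 0.098 in EC and were not called.

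The large subunit had the most calls, 11 of 18 in EC and 5 of 18 in PG/VG, with median LFCs of −0.27 and −0.19. BOP1, PES1 and WDR12 form the PeBoW complex, which is needed to make 28S and 5.8S rRNA. BOP1 was at 176, 193 and 163 CPM in control, 147, 169 and 117 CPM in PG/VG and 145, 129.9 and 109 CPM in EC. EC was below control without overlap, and within each batch the order was control, PG/VG and EC. Its LFC was −0.48 ± 0.077 in EC (edgeR adjusted p = 0.00025) and −0.31 ± 0.077 in PG/VG (edgeR adjusted p = 0.022).

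PES1 had 136, 145 and 139 CPM in control, 116, 119.6 and 107 CPM in PG/VG and 121, 104 and 105 CPM in EC. Treated and control libraries did not overlap, and EC and PG/VG did. The LFC was −0.35 ± 0.073 in EC (edgeR adjusted p = 0.00277) and −0.30 ± 0.073 in PG/VG (edgeR adjusted p = 0.0186). WDR12, the third PeBoW protein, was just short of the threshold in EC, at −0.22 ± 0.077 (edgeR adjusted p = 0.0548).

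MRTO4 is the nucleolar relative of the stalk protein P0 and holds its place on the pre-60S particle. It was at 121, 127 and 116 CPM in control, 101, 99.6 and 91.0 CPM in PG/VG and 99.1, 88.1 and 85.3 CPM in EC. All treated libraries were below all controls, and EC was lowest in each batch. Its LFC was −0.42 ± 0.071 in EC (edgeR adjusted p = 0.000361) and −0.32 ± 0.071 in PG/VG (edgeR adjusted p = 0.00999).

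Calls in both treatments were also made for PA2G4, an export and growth factor also named EBP1, and for EBNA1BP2, an early pre-60S factor. The LFCs of PA2G4 were −0.32 ± 0.067 for EC and −0.30 ± 0.067 for PG/VG (edgeR adjusted p = 0.00287 and 0.0111), and shares 24.9% of its exon length with other genes. EBNA1BP2 was at −0.29 ± 0.068 and −0.27 ± 0.068 (edgeR adjusted p = 0.00637 and 0.022). The EC calls of BOP1, PES1, MRTO4, PA2G4 and EBNA1BP2 held in all 9 fits without 1 library, whereas their PG/VG calls were lost without PG/VG replicate 2 or Control replicate 3, at edgeR adjusted p up to 0.156. Control replicate 4 and PG/VG replicate 4 also decided the PG/VG calls of BOP1, PES1 and EBNA1BP2, and Control replicate 2 that of PA2G4. The remaining calls, in EC alone, were the GTPases GTPBP4 at −0.29 ± 0.068 and GNL3 (nucleostemin) at −0.24 ± 0.069, the helicase DDX56 at −0.28 ± 0.071, NOP16 at −0.31 ± 0.082, the 5S particle factor RRS1 at −0.29 ± 0.086 and the export adaptor NMD3 at −0.25 ± 0.074. Each of these 6 lost the call without Control replicate 3, and each but GTPBP4 without EC replicate 3, at edgeR adjusted p from 0.0545 (GTPBP4) to 0.160 (RRS1) in the least favorable fit. Control replicate 2 decided the calls of GTPBP4, GNL3, RRS1 and NMD3 as well, Control replicate 4 those of GNL3 and RRS1, EC replicate 4 those of GNL3 and NMD3, and EC replicate 2 that of RRS1. That these 6 genes passed in EC and not in PG/VG does not show a difference between the treatments, which had no call among the members when compared directly.

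Large subunit genes that were not called had smaller LFCs in EC, from −0.20 ± 0.078 for NIP7 and −0.12 ± 0.07 for the helicase DDX18 to −0.10 ± 0.073 for the GTPase GNL2. SDAD1 and RRP1B were at −0.12 ± 0.078 and −0.11 ± 0.071. NOP2, an rRNA cytosine methyltransferase, was counted at 1.398, 0.495 and 0.450 CPM in control, 1.52, 1.09 and 0.429 CPM in PG/VG and 0.635, 0.766 and 0.893 CPM in EC. Its libraries overlapped, and its LFC, 0.029 ± 0.43 for EC and 0.37 ± 0.42 for PG/VG, had the widest error of the list.

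All 4 exosome genes were called lower in EC, and EXOSC5 had the strongest LFC of the 60 members in both treatments. EXOSC5 encodes a ring subunit also called RRP46. It stood at 33.7, 31.3 and 23.5 CPM in control, 22.9, 24.1 and 16.9 CPM in PG/VG and 22.5, 20.4 and 13.7 CPM in EC. Every EC library lay below every control library even though batch 4 was lower than the other batches, and PG/VG overlapped with control only through that batch. The LFC was −0.65 ± 0.092 in EC (edgeR adjusted p = 6.31e-05) and −0.47 ± 0.092 in PG/VG (edgeR adjusted p = 0.00399). The PG/VG call was lost without PG/VG replicate 2, at an edgeR adjusted p of 0.0725.

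EXOSC8, another ring subunit, had 107, 98.3 and 66.9 CPM in control, 85.7, 90.2 and 63.9 CPM in PG/VG and 92.1, 78.7 and 56.9 CPM in EC. Treated libraries were below the control of the same batch throughout, and the spread between batches was wider than that between conditions. The EC LFC was −0.25 ± 0.076 (edgeR adjusted p = 0.0289). The cap subunit EXOSC2 was at 83.4, 83.2 and 74.5 CPM in control, 74.5, 82.6 and 67.0 CPM in PG/VG and 74.6, 71.0 and 58.4 CPM in EC. EC was the lowest in batches 3 and 4 and level with PG/VG in batch 2, with an LFC of −0.25 ± 0.074 (edgeR adjusted p = 0.0305). The nuclear exonuclease EXOSC10 had an LFC of −0.23 ± 0.075 in EC (edgeR adjusted p = 0.0475) and −0.013 ± 0.075 in PG/VG, the latter with a sign that turned with total counts as the only scaling, without a filter beyond 1 count, and without Control replicate 4 or PG/VG replicate 3. It shares 39.1% of its exon length with antisense RNAs, and the strand setting of the counting is not given in the sources used here. The calls of EXOSC8, EXOSC2 and EXOSC10 were lost without Control replicate 2, Control replicate 3 or EC replicate 4, at edgeR adjusted p up to 0.144, 0.124 and 0.209, and further without Control replicate 4 (EXOSC2, EXOSC10), EC replicate 3 (EXOSC8, EXOSC2) or EC replicate 2 (EXOSC10).

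**Figure D3:**
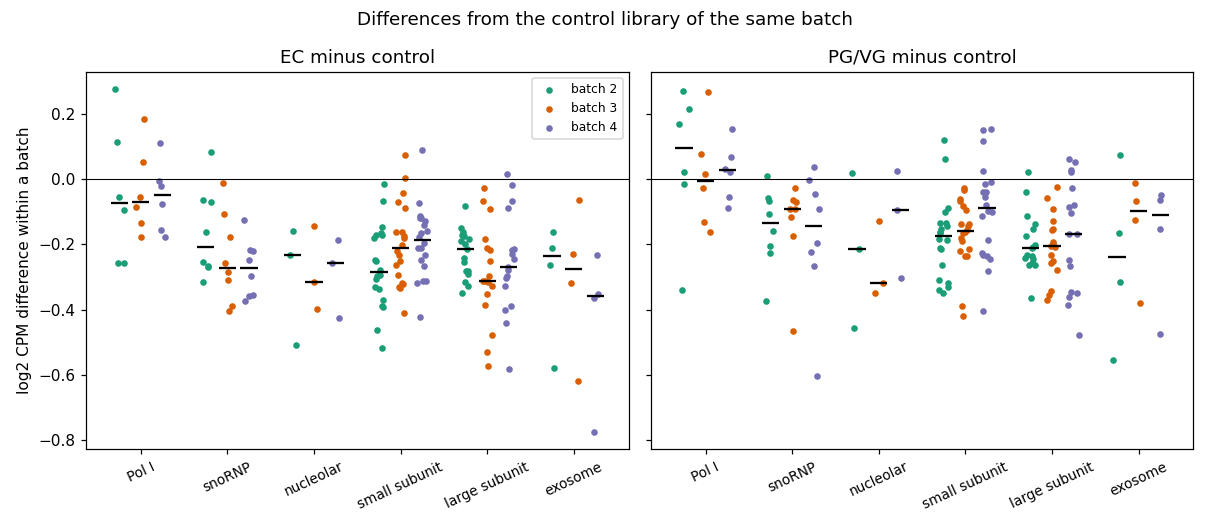
Difference in log2 CPM from the control library of the same batch, for EC (left) and PG/VG (right), with a point per member (58 members, without NOP2 and DDX47), colors for batches and black bars for medians. In EC the bars lie below 0 in each step and batch, nearest to 0 for Pol I, whereas in PG/VG the Pol I bars lie near or above 0.

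The direct comparison asked whether the e-cigarette liquid differed from its carrier. In EC vs. PG/VG 0 of 60 members passed the edgeR test (background 0.855% of tested genes called in either direction, 0.299% lower and 0.555% higher). When batch was removed with ComBat-Seq before DESeq2, 4 members were called lower. In that setting 359 of all genes were called lower (2.23%) and 299 higher. The median LFC was −0.080, against 0.0024 for all tested genes, and 52 members were lower by sign (49.3% of all tested genes). At an unadjusted p under 0.05 there were 9 of 60 members lower and 1 higher. Of all 16030 tested genes, 997 were lower and 1067 higher at that threshold (12.9% in either direction). The lowest adjusted p in the edgeR fit was 0.140, for UTP4, with an LFC of −0.22 ± 0.069. The 9 lower genes were UTP4, DKC1 at −0.20, EXOSC10 at −0.21, HEATR1 at −0.21, POLR1A at −0.19, DDX21 at −0.20, POLR1B at −0.18, NOLC1 at −0.16 and BOP1 at −0.17. NOP10 was the higher one, at 0.21 ± 0.088. Over all tested genes 48 were lower and 89 higher in the main fit, and 31 and 145 with total counts as the only scaling.

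Of the 30 members called in EC, 29 had a more negative LFC in EC than in PG/VG, and NPM1 was the exception. Since both values use the same controls, this count is a description. HEATR1 and EXOSC10 were near 0 in PG/VG, at −0.0032 and −0.013, and at −0.21 and −0.23 in EC. Members called in EC whose LFCs in the treatments lay within 0.05 of each other were NPM1, PES1, PA2G4, EBNA1BP2, RRP12, RRS1 and GNL3.

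Batches differed among the members as well. In batch 4 against batches 2 and 3, with the condition in the model, 18 members were lower (background 20.5% of tested genes) and 5 higher (background 20.1%). The lower ones were spread over all steps, with EXOSC8 at −0.55 ± 0.067, POLR1E at −0.54 ± 0.066, EXOSC5 at −0.53 ± 0.082, PA2G4 at −0.42 ± 0.059 and DKC1 at −0.42 ± 0.059. NOP10 at 0.43 ± 0.075, POLR1C at 0.37 ± 0.077, POLR1A at 0.32 ± 0.061, UTP20 at 0.28 ± 0.077 and UTP3 at 0.25 ± 0.078 were higher. Several of these batch differences were larger than the effect of EC on the same gene, and each batch held all 3 conditions. Within batches 2, 3 and 4 the median difference of the members between EC and control was −0.25, −0.22 and −0.22, and that between PG/VG and control −0.17, −0.15 and −0.091, so the direction was the same in each batch. Member by member, 50 of 60 were lower than control in all 3 batches for EC (background 21.5%) and 40 for PG/VG (background 19.9%), and 22 were lower in EC than in PG/VG in all 3 batches (background 14.6%). Without the batch 4 libraries the median LFC was −0.24 in EC, with 15 calls (3.43% of all tested genes called lower).

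**Figure D4:**
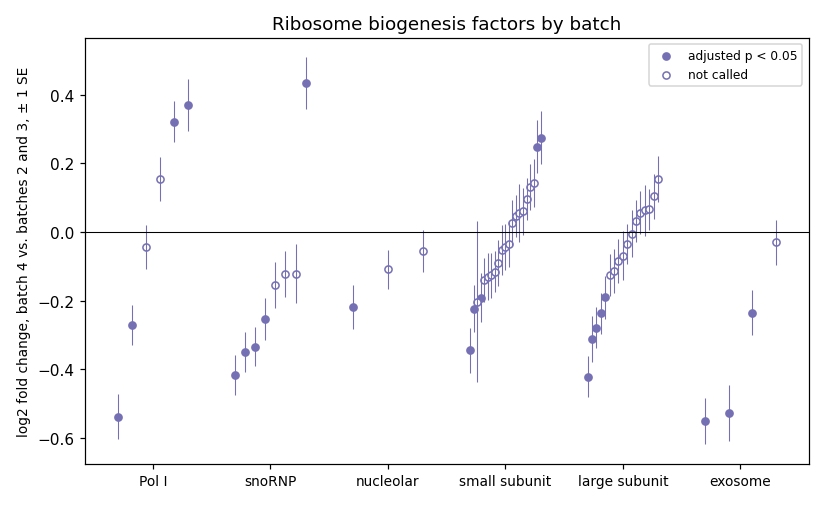
LFC ± SE of the members in batch 4 vs. batches 2 and 3, ordered within each step, with filled points at an adjusted p under 0.05 (NOP2 is left out for its wide error). Filled points below 0 number 18 and above 0 number 5, whereas in both treatments 0 members were called higher.

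A wider list of 123 other biogenesis factors, none of them a member, was described in the same way. In EC 25 of these were called lower and 0 higher, at a median LFC of −0.12, and PG/VG had 11 lower and 0 higher, at a median of −0.10. By step the EC counts were 1 of 16 other Pol I factors, 3 of 12 snoRNP factors, 6 of 36 small subunit factors, 15 of 46 large subunit factors and 0 of 13 exosome cofactors and subunits. POLR1F, a Pol I subunit, had an LFC of −0.40 ± 0.078 in EC (edgeR adjusted p = 0.00134), the snoRNP assembly ATPase RUVBL1 −0.32 ± 0.068, the small subunit factor NOC4L −0.46 ± 0.094 and the large subunit factor WDR18 −0.38 ± 0.08. For the 60 members the share called lower was 50% in EC, for these others 20.3% and for all tested genes 5.38%. In PG/VG these shares were 13.3%, 8.94% and 1.9%. The members and this list, like the lists below, were chosen with earlier results of these data known, so the shares are descriptions.

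MYC, the transcription factor named above, was measured beside the members. It stood at 144, 147 and 94.2 CPM in control, 124, 124 and 80.1 CPM in PG/VG and 111.4, 99.3 and 67.1 CPM in EC. The order was control, PG/VG and EC in each batch, with batch 4 lowest in every condition. The LFC was −0.47 ± 0.07 in EC (edgeR adjusted p = 9.36e-05) and −0.23 ± 0.069 in PG/VG (edgeR adjusted p = 0.0565). Of the 11 genes of the MYC network, MYC alone was called in EC (9.09%), and 0 were called in PG/VG. Of all tested genes, 13.5% were called in either direction in EC (5.38% lower) and 4.54% in PG/VG (1.9% lower). A difference between MYC and the rest of the network was not tested. Members with CACGTG in the promoter window were called lower in EC in 8 of 18 cases (median LFC −0.19), and members with a window but no CACGTG in 17 of 33 (median −0.24), a description without a test.

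Genes that host snoRNAs in their introns, whose spliced RNA is counted here and not the snoRNA itself, were lower by sign in 15 of 15 cases in both treatments. The share of all tested genes lower by sign was 48.5% in EC and 47.1% in PG/VG. In EC 11 of the host genes were called lower (median LFC −0.46, background 5.38%) and in PG/VG 7 (median −0.30, background 1.9%). GAS5 was at 142, 150.5 and 103 CPM in control, 101, 114 and 75.4 CPM in PG/VG and 105, 103 and 77.4 CPM in EC. Its treated libraries were well below the control of the same batch and overlapped with each other within the spread of the batches. For EC and for PG/VG, the LFC of GAS5 was −0.46 ± 0.07 and −0.45 ± 0.07, that of SNHG1 −0.53 ± 0.079 and −0.46 ± 0.079, and that of ZFAS1 −0.60 ± 0.087 and −0.35 ± 0.086. In batch 4, 10 of the 15 host genes were called lower than in batches 2 and 3 (background 20.5%). Of 20 cell cycle genes, 4 were called lower in EC (20%, background 5.38%) and 0 in PG/VG (background 1.9%), with median LFCs of −0.044 and 0.043. In EC vs. PG/VG 18 of the 20 were lower by sign (background 49.3%), with a median LFC of −0.14 and 1 called lower (background 0.299%).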

How the data were processed

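RNA of 9 BEAS-2B samples, 3 per condition, was sequenced. Per the labels and the study's methods, fastp was used for trimming, STAR for alignment to GRCh38.p12 and featureCounts (Subread 2.0.4) for counting on exons, where reads with several matches or on several genes were dropped. The strand setting is not given in the sources used here. What the authors deposited are raw counts, neither filtered nor adjusted for batch.

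Members and lists were chosen with earlier results of these data known. The 16030 genes that reached 10 counts in 3 or more libraries were fitted in edgeR 4.0.16 (R 4.3.3) with its quasi-likelihood test, TMM scaling, terms for condition and batch and all 9 libraries. P-values are two-sided and adjusted by Benjamini-Hochberg over all tested genes at a threshold of 0.05. CPM values use TMM-scaled library sizes, except those of the cell type markers and their sums, which use total counts. Within-batch differences are of log2 CPM with a prior count of 2. Depth was 16168260 to 24917838 counts per library. P-values measure the spread between these libraries.

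The replicate number in the labels (2, 3 or 4) is also given there as the batch. The number was kept as a block because the labels name it as the batch and the study's methods remove a batch effect. Deviations from the mean of the condition correlated at 0.334 to 0.707 in the 9 pairs with the same number. In the 18 pairs with different numbers they correlated at −0.539 to 0.426. PG/VG replicate 2 and EC replicate 3 reached 0.426, so these values set batch 4 apart and do not separate batches 2 and 3. No libraries were duplicates, with a chi-square per gene of at least 3.88 between replicates.

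Levels per kilobase use exon lengths of GENCODE 44. Promoter windows come from RefSeq (GRCh38.p14). Per-library values are given for the 3 members with the lowest p in EC vs. control in each step and for those with a positive LFC in both treatments; those of NOP10, MYC and GAS5 were added after their values were seen. Alternatives were RLE or total-count scaling, other filters, DESeq2 1.42.0, ComBat-Seq (sva 3.50.0) with DESeq2, a GC and length correction (mgcv 1.9.3), no batch term, the 2 groups alone and each library left out. The fit was tested on simulated data. One leukocyte marker of the list is not reported here and was left out of its sum.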

Additional observations from a re-analysis of the deposited data

How the results depend on the processing

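The direction of the members' median LFC was the same in every alternative run. The number of members called moved with the scaling, the batch handling and the libraries. In EC vs. control 30 members were called lower, 0 without the replicate block (lowest adjusted p 0.133), 16 with total counts as the only scaling, 15 without the batch 4 libraries (chosen after seeing the data), and 12 to 32 when 1 library was left out (the minimum came without Control replicate 3). The share of all genes called lower moved as well, from 5.38% to 0%, 3.03%, 3.43% and, without Control replicate 3, 2.89%. The median LFC of −0.23 was −0.17 with total counts as the only scaling and −0.20 after the GC content and length correction with the replicate block, and −0.24 to −0.23 over the fits without 1 library. The count was 33 with RLE, 31 with DESeq2 and 41 with ComBat-Seq and DESeq2, where 9.79% of all genes were called lower. It was 39 after the GC and length correction (9.75% of all genes) and 22 without a filter beyond 1 count (2.17%). In PG/VG vs. control 8 members were called lower, 0 without the replicate block, 27 with ComBat-Seq (5.89% of all genes), 14 after the GC and length correction, 4 without the batch 4 libraries and 0 to 12 without 1 library. Of all genes, 1.9% were called lower in the main fit, 3.54% after the correction and 0.391% without PG/VG replicate 2. The number called higher there, 0, was 1 with total counts, with ComBat-Seq and with the 2 groups alone, and 0 to 1 without 1 library, and the median was −0.10 after the GC and length correction. In EC vs. PG/VG the 0 lower calls became 4 with ComBat-Seq (POLR1A, DKC1, NOLC1 and UTP4) and 4 after the GC and length correction (DKC1, DDX21, UTP4 and BOP1), and the median was −0.046 with total counts. Of all genes, 2.23% were called lower there with ComBat-Seq and 1.39% after the correction, beside 0.299% in the main fit. The 5 members higher in batch 4 became 9 with total counts. The causes were not tested.

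In the alternatives run, the LFC changed sign for 6 members in EC vs. control, 11 in PG/VG vs. control and 23 in EC vs. PG/VG, 0 of them called in that comparison. In EC these were DDX47 (−0.21 to 0.28 over the alternatives), WDR75 (−0.14 to 0.011), NOP10 (0.030 after the GC and length correction, 0.024 without the batch 4 libraries, −0.20 to 0.043 without 1 library), NOP2 (−0.024 without the replicate block, −0.012 after the correction, −0.41 without the batch 4 libraries, −0.48 to 0.64 without 1 library), POLR1A (−0.0074 after the correction, −0.027 to 0.080 without 1 library) and UBTF (−0.0095 after the correction). In PG/VG they were HEATR1, UTP20, WDR36, WDR75, UTP3, GNL2, RRP1B and DDX47 (together −0.18 to 0.19 over the alternatives), EXOSC10 (0.013 with total counts, 0.0015 without a filter beyond 1 count, −0.067 to 0.053 without 1 library), POLR1B (−0.032 after the correction, −0.013 to 0.054 without 1 library) and POLR1C (−0.0060 to 0.13 without 1 library).

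All genes together called 863 lower and 1294 higher in EC vs. control, and 0 and 16 without the replicate block. Total counts as the only scaling shifted the median LFC of all genes from 0.0078 to 0.068 in EC. The widest errors were those of NOP2 and DDX47, the members with the fewest counts.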
